A study of Mus musculus with 8 samples.

Results

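The miR-23, miR-27 and miR-24 microRNAs of the mouse are made from a pair of related gene clusters, one on chromosome 8 (miR-23a, miR-27a, miR-24-2) and one on chromosome 13 (miR-23b, miR-27b, miR-24-1). The 7 mature forms described here were taken by name: the guide arms mmu-miR-23a-3p, mmu-miR-23b-3p, mmu-miR-27a-3p, mmu-miR-27b-3p and mmu-miR-24-3p, and the passenger arms mmu-miR-24-1-5p and mmu-miR-24-2-5p. The prefix mmu, for mouse, is left out below. They are 7 of the 1281 mature miRNAs measured and fill 8 of 1418 table entries, because miR-24-3p has 1 entry for each of its precursors. All 7 passed the filters on low counts of both comparisons.

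Small RNA was sequenced from MC3T3-E1 sc4, a cloned pre-osteoblast line derived from mouse calvaria (labelled C57BL/6, passages 10 to 15), and from calvaria, the bony roof of the skull. MC3T3 cells gave 1 library each at day 0, undifferentiated, and at days 6, 10, 17 and 24 of osteogenic culture with ascorbic acid (50 µg/ml) and β-glycerol phosphate (4 mM). Every MC3T3 library was a pool of RNA from 3 cultures of this 1 clonal line, so no day had a replicate. The 3 calvaria libraries came from parietal and frontal bones of female C57/B6 mice aged 2 to 3 days that carried Prrx1-Cre, after a short digestion with collagenase and trypsin. The Prrx1 promoter drives Cre in limb and part of the skull mesenchyme. Whether the calvaria libraries are 3 animals is not stated in the labels. The p-values therefore measure only the spread among these libraries, which may be technical.

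A miRNA cluster is transcribed as 1 primary RNA that is cut into hairpins. Each hairpin gives a 5p and a 3p arm, and the arm that is loaded into Argonaute, here the 3p arm, is the guide that pairs with mRNAs through its seed (bases 2 to 8). In bone, the chromosome 8 cluster is known for holding back osteoblast maturation: RUNX2, the master regulator of osteoblasts, represses it, and miR-23a targets Runx2 itself. miR-27 targets PPARγ, the master regulator of fat cells, and miR-23 and miR-27 are also abundant in blood vessel lining.

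The guide sequences are shown because they define 3 families that the paired loci share; capitals mark the seed (RefSeq, GRCm38.p6).
miR-23a-3p: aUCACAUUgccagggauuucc
miR-27a-3p: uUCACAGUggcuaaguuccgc
miR-27b-3p: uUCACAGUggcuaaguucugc
miR-24-3p: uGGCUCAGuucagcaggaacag

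The miR-27 guides share their seed and differ by 1 substitution over 21 bases, C19U, with positions counted from the 5′ end of miR-27a-3p. The miR-24-3p sequence is the same at both loci, so its reads cannot be assigned to a chromosome. Of the 1679 mature names in the RefSeq table, none outside the pair had the seed of miR-27. The miR-24-3p seed also occurred in miR-6413, miR-6410, miR-6369 and miR-5124b, all 4 of which were listed at 0 in every library. A shifted relative of miR-27 is miR-128-3p: bases 2 to 9 of miR-27a-3p are bases 1 to 8 of miR-128-3p.

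The passenger arms of miR-24 tell the loci apart. They share their first 16 bases and differ in the 3′ part, shown in capitals.
miR-24-1-5p: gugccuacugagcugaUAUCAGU
miR-24-2-5p: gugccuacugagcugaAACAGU

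On GRCm38.p6 the chromosome 8 hairpins lie within 404 bases on the plus strand (chr8:84208518-84208921). Mir23a and Mir27a stand outside other annotated genes and Mir24-2 overlaps an exon of the long noncoding RNA gene Gm26532. The chromosome 13 hairpins span 792 bases (chr13:63300484-63301275) inside the protein-coding gene 2010111I01Rik, on its strand and opposite to Fancc. Mir23b is intronic there, while Mir27b and Mir24-1 overlap exons of 2010111I01Rik transcripts. Within the clusters, miR-23a-3p comes from chr8:84208563-84208583, miR-27a-3p from chr8:84208727-84208747 and miR-27b-3p from chr13:63300760-63300780. The miR-24-3p copies lie at chr8:84208875-84208896 and chr13:63301251-63301272.

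Library totals were 2742368 to 4031962 counts in MC3T3 and 1183011 to 2023036 in calvaria. Day 0 stood apart: its Spearman correlation with the later days was 0.938 to 0.955 over 259 miRNAs, against 0.975 to 0.994 among days 6 to 24, and 45.5% of its counts were miR-21a-5p, compared with 11.2% to 20.1% later. Levels are given in RPM, counts scaled to 1 common library total, which such a share lowers for every other miRNA. Fold changes and tests use counts scaled by TMM (a trimmed mean of between-library ratios), so a fold can differ from the ratio of RPM.

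The order of RPM levels differed between the materials. In all 8 libraries miR-27b-3p was highest and miR-24-3p second, and miR-24-1-5p was lowest, at 10.5 to 22.8 RPM (19 to 72 counts). On every MC3T3 day miR-27a-3p came next, above miR-23a-3p and miR-23b-3p, whose means of 1586 ± 369 and 1631 ± 506 RPM (SD, n = 5) differed by less than their spread. In all 3 calvaria libraries miR-23a-3p came next, above miR-27a-3p, with miR-23b-3p below both.

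**Figure D1:**
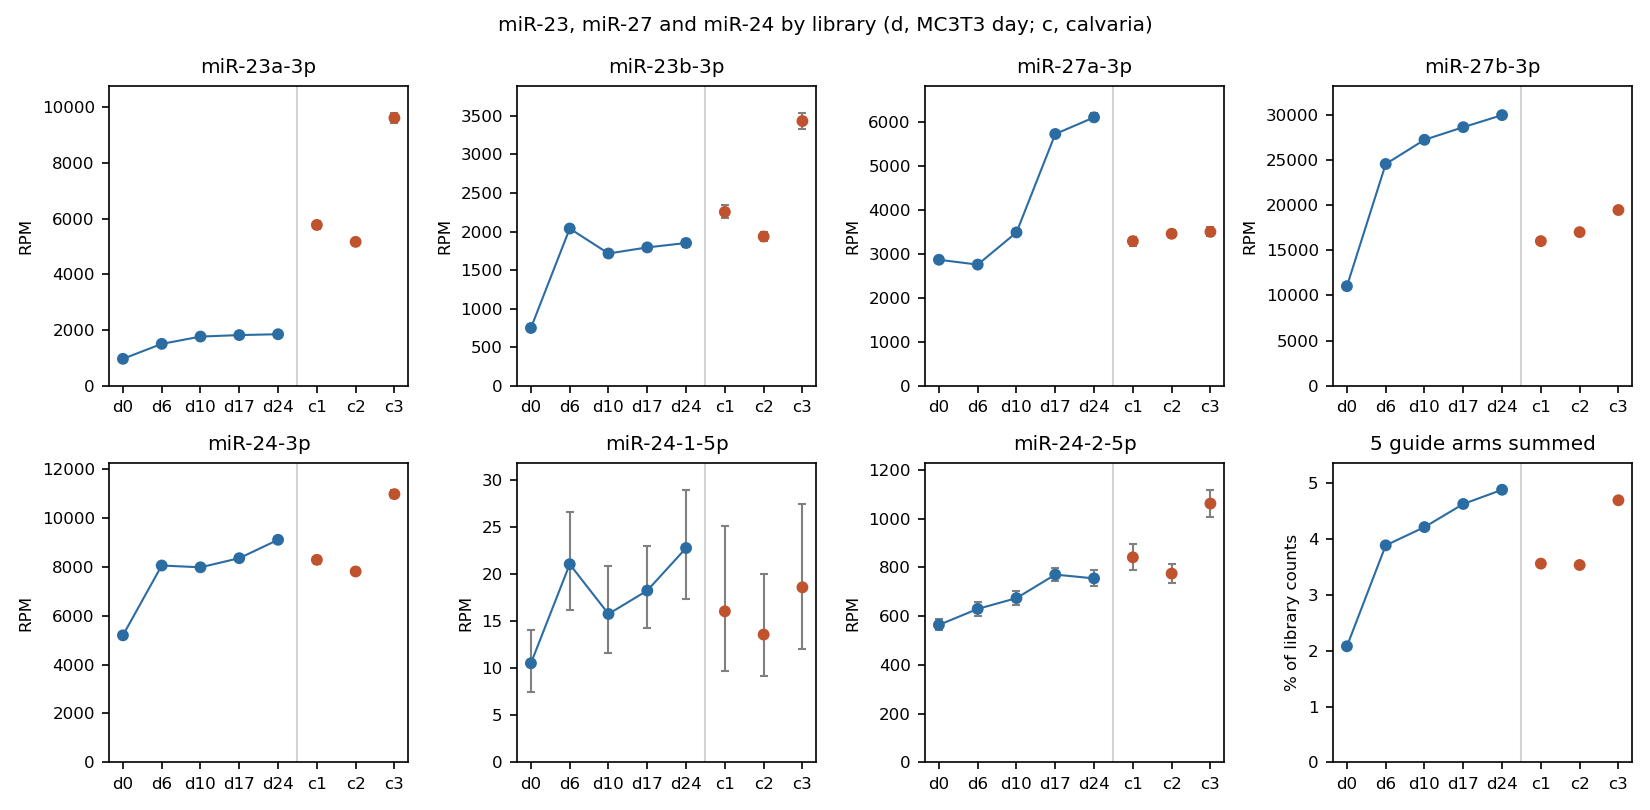
RPM of the 7 members and the summed guide arms (% of library counts) in the 5 MC3T3 libraries (blue, d with the day) and the 3 calvaria libraries (red, c), with exact 95% Poisson intervals where visible; each panel starts at 0. miR-23a-3p in calvaria (5169 to 9618 RPM) stands above all MC3T3 days (972 to 1855 RPM), while the summed guide arms overlap (3.54% to 4.70% in calvaria, 2.08% to 4.88% in MC3T3).

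The first comparison set calvaria, bone with its resident cells, against the cultured line at all 5 days, so any change over days is part of the MC3T3 spread. One of the 7 members was higher in calvaria, miR-23a-3p, and 1 was lower, miR-27b-3p. For the other 5 the test gave no call. Of all 471 miRNAs tested, 35.5% were called higher and 28.7% lower, 64.1% in all, so that 2 of 7 is a smaller share than among all miRNAs. The median log2 difference was 0.02 over the 7 members and 0.06 over all miRNAs tested.

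The miR-23 family came first in size of difference. miR-23a-3p measured 972, 1508, 1771, 1824 and 1855 RPM at days 0, 6, 10, 17 and 24, and 5777, 5169 and 9618 RPM in calvaria 1, 2 and 3. The groups did not overlap, and calvaria 3 stood highest. The difference was 1.91 ± 0.24 on the log2 scale (SE), a 3.77-fold higher level in calvaria, with an adjusted p of 4.04e-05 (edgeR quasi-likelihood test, higher in 3 of 3 calvaria libraries). Without day 0 it was 1.85, and over 20 alternative settings it ranged from 1.49 to 2.21, called in all 20.

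The chromosome 13 copy, miR-23b-3p, measured 751, 2040, 1716, 1795 and 1852 RPM over the MC3T3 days and 2255, 1936 and 3433 RPM in calvaria. Calvaria 2 lay below day 6, and calvaria 3 was again highest. Its log2 difference of 0.47 ± 0.26 (95% interval -0.10 to 1.04) was not called (edgeR quasi-likelihood test, adjusted p = 0.131). A call came with the size factors of DESeq2 in place of TMM, at 0.65 with an adjusted p of 0.0428 in edgeR, where 39.1% of all miRNAs were called higher. The DESeq2 Wald test called it too, with an adjusted p of 0.0377 against 39.9% of all miRNAs.

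The miR-27 family did not follow miR-23. miR-27a-3p, whose hairpin lies beside that of miR-23a, measured 2865, 2755, 3486, 5721 and 6099 RPM over the days and 3288, 3455 and 3500 RPM in calvaria. The calvaria libraries lay close together, above days 0 and 6 and below days 17 and 24. Against all days the log2 difference was -0.51 ± 0.31 (adjusted p = 0.167, edgeR quasi-likelihood test). Against days 17 and 24 alone it was -1.15 ± 0.14 with an adjusted p of 0.000125, a comparison in which 38.9% of miRNAs were called higher and 29.4% lower. Against days 0 and 6 alone it was -0.13 with an adjusted p of 0.714. Upper quartile factors also gave a call, at -0.96 with an adjusted p of 0.0273, but moved the background to 30.1% higher and 40.8% lower.

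miR-27b-3p, the most abundant member, measured 11025, 24534, 27210, 28608 and 29940 RPM over the days and 16010, 17002 and 19447 RPM in calvaria. Calvaria lay between day 0 and the later days. Its log2 difference was -0.65 ± 0.25, a 1.57-fold lower level in calvaria (adjusted p = 0.0414, edgeR quasi-likelihood test). This call held in 6 of 20 alternatives. It was lost without any 1 of days 6, 10, 17 and 24 or any 1 of the calvaria libraries (differences of -0.44 to -0.62), whereas without day 0 it was -0.78 with an adjusted p of 0.00193, beside 38.8% of all miRNAs called higher and 31.5% lower. Against days 17 and 24 alone it was -1.10 (adjusted p = 0.000237), and against days 0 and 6 alone -0.30 (adjusted p = 0.341).

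miR-24-3p, the product of both loci, measured 5193, 8047, 7975, 8347 and 9099 RPM over the days and 8280, 7803 and 10965 RPM in calvaria. Calvaria 1 and 2 lay among the MC3T3 days and calvaria 3 above them. The log2 difference was 0.02 ± 0.20 (95% interval -0.41 to 0.46, adjusted p = 0.913, edgeR quasi-likelihood test), and its sign changed in 5 of 21 alternatives, upper quartile factors among them.

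The passenger arms that mark the miR-24 loci gave no call either. miR-24-2-5p, from chromosome 8, measured 564, 630, 674, 770 and 755 RPM over the days and 841, 774 and 1062 RPM in calvaria. All 3 calvaria libraries lay above all MC3T3 days in RPM, but calvaria 2 by only a few RPM, and the log2 difference after scaling was 0.18 ± 0.21 (adjusted p = 0.470, edgeR quasi-likelihood test; negative with upper quartile factors, at -0.26). Together with miR-23a-3p, 2 of 7 members were thus higher without overlap in RPM and none lower, against 39.5% and 21.9% (61.4% in either direction) of all miRNAs tested. miR-24-1-5p, from chromosome 13, measured 10.5, 21.1, 15.8, 18.3 and 22.8 RPM over the days and 16.1, 13.6 and 18.6 RPM in calvaria. The groups overlapped, with a log2 difference of -0.31 ± 0.27 (adjusted p = 0.334, edgeR quasi-likelihood test); upper quartile factors gave -0.74 with an adjusted p of 0.0269.

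Markers of other cell types also differed between the materials. The endothelial miRNAs miR-126-3p and miR-126-5p summed to 6.20 to 19.0 RPM in MC3T3 and to 9028, 10749 and 20323 RPM in calvaria 1, 2 and 3, with both above every MC3T3 day. The 7 blood cell miRNAs summed to 38.9 to 111 RPM in MC3T3 and to 308, 362 and 454 RPM in calvaria, with 6 of 7 above every MC3T3 day. The exception, miR-486-5p, averaged 82.9 RPM in MC3T3 and 53.1 RPM in calvaria. The cartilage miRNAs miR-140-5p and miR-140-3p summed to 16830 to 24518 RPM and to 98585, 99359 and 55110 RPM. Calvaria 3, highest in miR-23a-3p, was thus highest in the endothelial and blood sums and lowest in the cartilage sum, while calvaria 2, lowest in miR-23a-3p, was lowest in neither the endothelial nor the blood sum. The 3 striated muscle miRNAs summed to 197 to 573 RPM in MC3T3 and to 362, 276 and 635 RPM in calvaria. Of these, 2 of 3 lay above every MC3T3 day, while miR-206-3p averaged 212 RPM in MC3T3 and 112 RPM in calvaria. The 5 mesenchymal ones summed to 130003 to 187906 RPM and to 139490, 131924 and 145904 RPM. Among them, 1 of 5 lay above every MC3T3 day, and miR-143-3p and miR-145a-5p lay below. The muscle and mesenchymal sums both had the order of miR-23a-3p over the calvaria libraries. None of these markers was at 0 in all MC3T3 libraries. The part of any of these cell types in the miR-23a-3p difference was not tested, and in such bulk samples fewer cells of a type and less RNA per cell cannot be told apart.

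**Figure D2:**
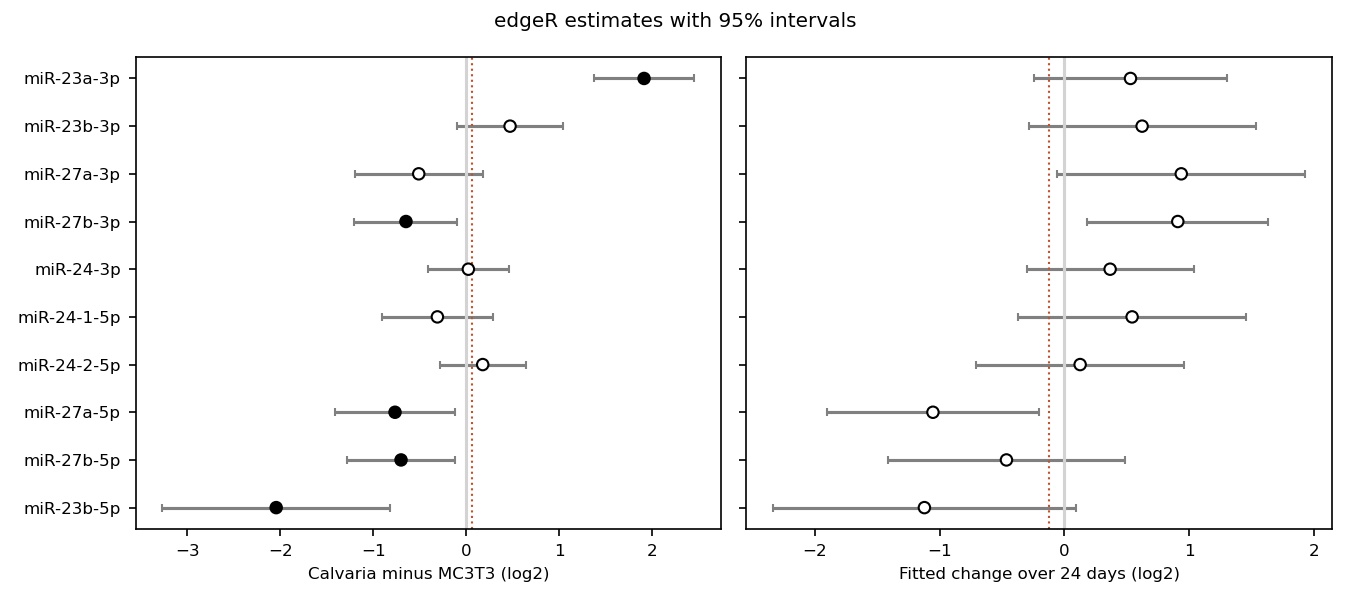
Log2 differences between calvaria and MC3T3 (left) and fitted log2 changes over 24 days in MC3T3 (right) for the 7 members and 3 passenger arms, from edgeR, with 95% intervals; filled points have an adjusted p under 0.05, and the dotted line is the median of all miRNAs tested (0.06 left, -0.12 right). On the left miR-23a-3p stands apart at 1.91 and the other members lie between -0.65 and 0.47; on the right no point is filled.

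Ratios between members within a library need no scaling between libraries. Each of 6 such ratios was compared between calvaria and MC3T3 with an exact two-sided permutation test, which with 3 against 5 libraries cannot give less than 0.0357. Of the 6 ratios 4 reached that minimum, for which the adjusted value is 0.0536, so none was under 0.05 after adjustment.

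Of the 3 pairs of copies, the miR-23 pair had ratios that did not overlap between the materials. The ratio of miR-23a-3p to miR-23b-3p was 1.30, 0.739, 1.03, 1.02 and 1.002 over the days and 2.56, 2.67 and 2.80 in calvaria. The copies were thus near parity in the cell line, and the mean ratio was 2.67-fold higher in calvaria (log2 means 0.00 ± 0.29 and 1.42 ± 0.06, SD; exact permutation p = 0.0357, adjusted 0.0536). The ratio of miR-27a-3p to miR-27b-3p was 0.260, 0.112, 0.128, 0.200 and 0.204 over the days and 0.205, 0.203 and 0.180 in calvaria, so the groups overlapped (exact permutation p = 0.571, adjusted 0.571). Whether these 2 differences themselves differ was not tested. For the miR-24 passenger arms, miR-24-2-5p stood 29.9 to 53.5 times above miR-24-1-5p in MC3T3 and 52.4 to 57.0 times above it in calvaria (exact permutation p = 0.0714, adjusted 0.0857).

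These pairs do not rank the loci alike. In every library the chromosome 13 form was the more abundant for miR-27 guides, and the chromosome 8 form for miR-24 passenger arms. For miR-27 the order depended on the arm counted. Its chromosome 8 passenger, miR-27a-5p (91.5 to 203 RPM over all libraries), lay above miR-27b-5p (20.3 to 46.9 RPM). In MC3T3 the chromosome 13 passenger miR-23b-5p (7.66 to 15.4 RPM) lay above miR-23a-5p (0.32 to 2.54 RPM). Output of the loci themselves was not measured. Members of a pair share sequence: both counts of a pair ended in 0.5 in the same libraries, in 4 of 8 for miR-23a-3p with miR-23b-3p, 2 of 8 for the miR-27 guides and 4 of 8 for the miR-24 passenger arms. Reads that match both may have been divided between them. If divided evenly, an even number of such reads would leave whole counts, so these libraries do not show how many were shared. Ratios within a pair are uncertain to an unknown extent. An even division would move a ratio toward 1, and its part in the near parity of the miR-23 copies in MC3T3 was not tested. The 2 entries of miR-24-3p were equal in 6 of 8 libraries and never more than 2 counts apart.

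Neighbours within a cluster parted from each other in both clusters. On chromosome 8, the ratio of miR-23a-3p to miR-27a-3p was 0.339, 0.547, 0.508, 0.319 and 0.304 over the days and 1.76, 1.50 and 2.75 in calvaria, a 4.94-fold difference without overlap (exact permutation p = 0.0357, adjusted 0.0536). On chromosome 13, the ratio of miR-23b-3p to miR-27b-3p was 0.0681, 0.0831, 0.0631, 0.0628 and 0.0619 over the days and 0.141, 0.114 and 0.177 in calvaria, 2.10-fold higher without overlap (exact permutation p = 0.0357, adjusted 0.0536). miR-24-3p stood 2.27 to 3.01 times above the sum of miR-23a-3p and miR-23b-3p in MC3T3 and at 0.840 to 1.10 times that sum in calvaria, with the same p and adjusted p by the exact permutation test. Each of the 6 differences kept its sign without any single library; the miR-23a-3p to miR-27a-3p difference ranged from 2.05 to 2.49 on the log2 scale and that of miR-23a-3p to miR-23b-3p from 1.31 to 1.51.

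**Figure D3:**
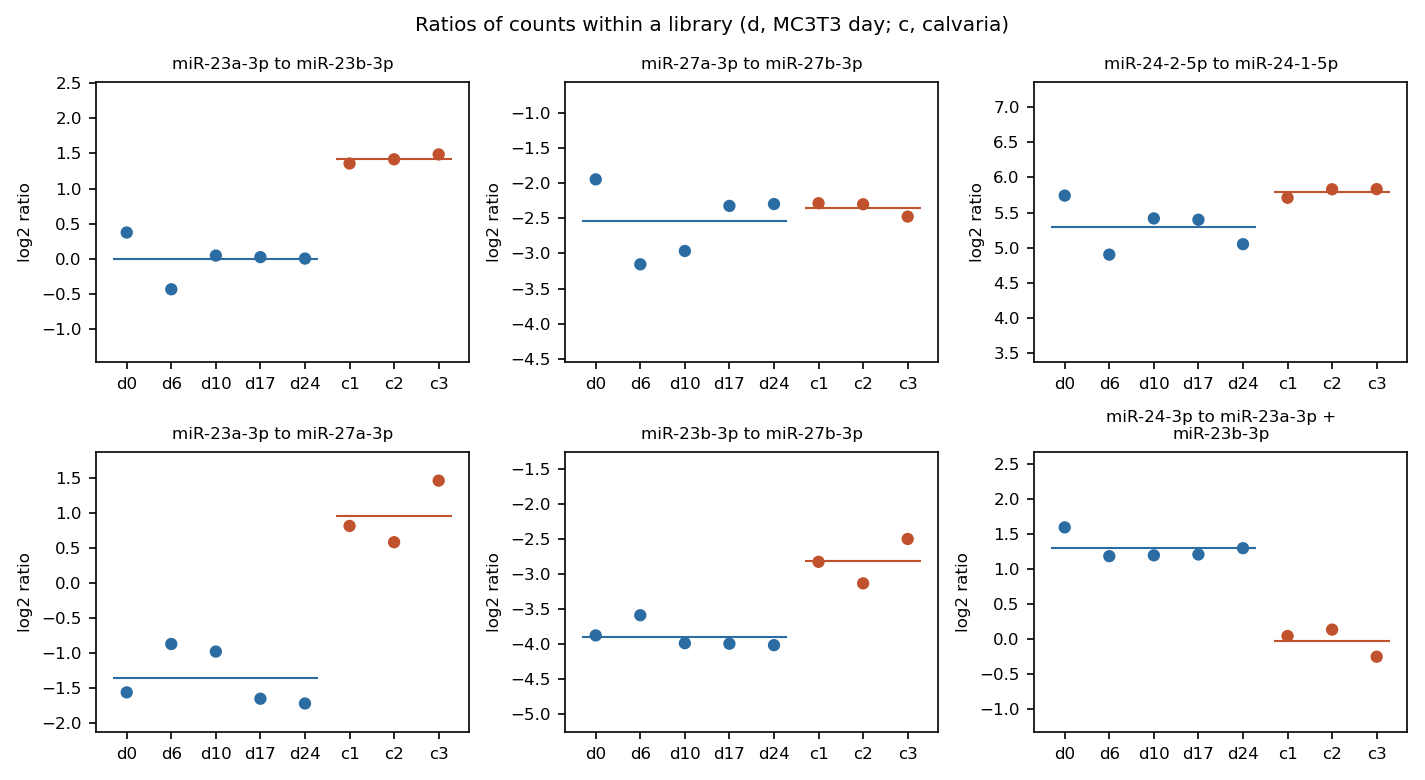
Log2 ratios of counts within each library (d, MC3T3 day, blue; c, calvaria, red) for the 6 pairs, with lines at the group means; all panels span the same number of log2 units. The miR-23a-3p to miR-23b-3p, miR-23a-3p to miR-27a-3p and miR-23b-3p to miR-27b-3p ratios lie higher in every calvaria library, the miR-24-3p ratio lies lower, and the other 2 overlap.

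Summed, the 5 guide arms took nearly the same mean share of each material, 3.94% ± 1.11 of counts in MC3T3 (SD, n = 5) and 3.93% ± 0.66 in calvaria (SD, n = 3). The MC3T3 mean includes day 0 at 2.08%, while days 6, 10, 17 and 24 held 3.89%, 4.22%, 4.63% and 4.88%. Calvaria 1, 2 and 3 held 3.56%, 3.54% and 4.70%, so calvaria 1 and 2 lay below every day but day 0. The make-up of the guide-arm counts differed. miR-23a-3p was 4.10% ± 0.36 of the guide-arm counts in MC3T3 and 17.1% ± 3.0 in calvaria, while miR-27b-3p was 60.7% ± 4.5 and 44.8% ± 3.3, both without overlap. miR-23b-3p took 4.12% ± 0.65 and 6.37% ± 0.92, also without overlap (at most 5.25% in MC3T3 and at least 5.47% in calvaria). The shares of the other 2 overlapped, with miR-27a-3p at 10.8% ± 2.9 and 8.82% ± 1.21 and miR-24-3p at 20.2% ± 2.8 and 22.9% ± 0.7. As shares of 1 total these values depend on each other. By family, the miR-23 guides together were 0.322% ± 0.084 of all counts in MC3T3 and 0.940% ± 0.320 in calvaria, and the miR-27 guides 2.84% ± 0.88 and 2.09% ± 0.19.

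**Figure D4:**
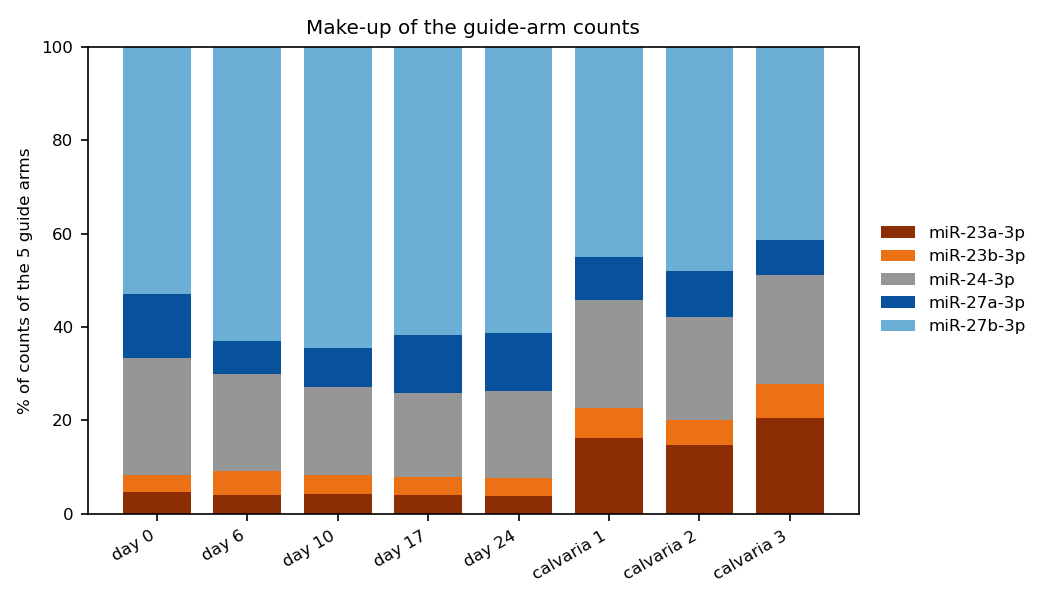
Share of each guide arm in the counts of the 5 guide arms (%), 1 bar per library. The miR-23a-3p segment is 3.80% to 4.67% in the MC3T3 libraries and 14.6% to 20.5% in calvaria, and miR-27b-3p is the largest segment in every bar.

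The second comparison followed the members over osteogenic culture. None of the 7 passed the test of a linear trend over the 5 MC3T3 libraries. Of 391 miRNAs tested, 1.02% were called rising and 1.28% falling, 2.30% in all (4 and 5 miRNAs; 40 and 51 at an unadjusted p under 0.05), so few calls were made anywhere. At an unadjusted p under 0.05, 1 member passed, and neither the DESeq2 Wald test nor limma called any of the 7. The fitted changes over 24 days were positive for all 7, against 44.2% of all miRNAs tested, with a median of 0.54 for the members and -0.12 for all. The sign of miR-24-2-5p changed in 3 of 16 alternatives.

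Most members had their lowest RPM at day 0, the library in which miR-21a-5p took the largest share of counts. In RPM this held for 6 of 7 members, all but miR-27a-3p, against 59.3% of miRNAs tested. After TMM scaling it held for 3 of 7 (miR-23b-3p, miR-27b-3p and miR-24-1-5p), against 35.3%.

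miR-27b-3p had the smallest p of the members. Its TMM-scaled RPM was 14913, 20686, 26104, 26367 and 29691 over the days, higher at each later day. The fitted log2 change was 0.91 ± 0.31 (unadjusted p = 0.0206, adjusted p = 0.134, edgeR quasi-likelihood test). On a log2(day + 1) scale, on which 9.97% of miRNAs were called rising and 12.5% falling, miR-27b-3p was called at 0.99 with an adjusted p of 0.0197. Without day 0 its linear change was 0.57 with an adjusted p of 0.289.

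miR-27a-3p took another course. Its TMM-scaled RPM was 3875, 2323, 3344, 5273 and 6048, with the lowest value at day 6 and the highest at day 24. The fitted log2 change was 0.94 ± 0.43 (adjusted p = 0.241, edgeR quasi-likelihood test). Without day 0, that is over days 6 to 24, miR-27a-3p rose by 1.84 ± 0.37 when scaled to 24 days, with an adjusted p of 0.000117, in a fit that called 7.11% of miRNAs rising and 7.89% falling. This was the only call of miR-27a-3p in 16 alternatives, and it leaves out the library that lay above day 6. From day 6 to day 24 itself the TMM-scaled RPM rose 2.60-fold.

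The other members showed smaller fitted changes. miR-23a-3p changed by 0.53 ± 0.33 (adjusted p = 0.356, edgeR quasi-likelihood test) and miR-23b-3p by 0.62 ± 0.39 (adjusted p = 0.357). From day 6 on, the RPM of miR-23b-3p stayed between 1716 and 2040, and without day 0 its change was 0.12. miR-24-3p changed by 0.37 ± 0.29, miR-24-1-5p by 0.54 ± 0.39 and miR-24-2-5p by 0.13 ± 0.36, with adjusted p of 0.454, 0.412 and 0.852. The 95% intervals of these 5 members all included 0, and the highest upper bound was 1.53, for miR-23b-3p.

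The passenger arms of the same hairpins were compared with their guides. miR-27a-5p measured 194, 203, 143, 129 and 125 RPM over the days and 127, 91.5 and 112 RPM in calvaria. Days 0 and 6 were high and days 10 to 24 lower. Its fitted change over 24 days was -1.05 ± 0.37 (adjusted p = 0.138, edgeR quasi-likelihood test), opposite in sign to that of miR-27a-3p, and on the log2(day + 1) scale it fell by 1.17 with an adjusted p of 0.0148. That scale called 12.5% of all miRNAs falling, and it was the only 1 of 16 alternatives to call miR-27a-5p. Counts of miR-27a-3p per count of miR-27a-5p were 14.8, 13.6, 24.4, 44.2 and 48.6 over the days and 25.9, 37.8 and 31.1 in calvaria. The ratio was 3.30 times higher at day 24 than at day 0. Guide counts per passenger count were also higher at day 24 for miR-23b (4.95 times), miR-27b (2.43 times) and miR-23a (4.33 times, on 10 and 3 passenger counts). Counts of miR-24-3p, which comes from both loci, were 1.31 times higher per count of miR-24-2-5p. Set against miR-24-1-5p, at 42.5 counts on day 0 and 62.5 on day 24, the direction could not be told. From day 0 to day 24 the RPM of miR-24-3p rose 1.75 times and that of miR-24-1-5p 2.17 times (95% interval 1.44 to 3.29, which includes 1.75). The trend of these ratios was not tested.

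**Figure D5:**
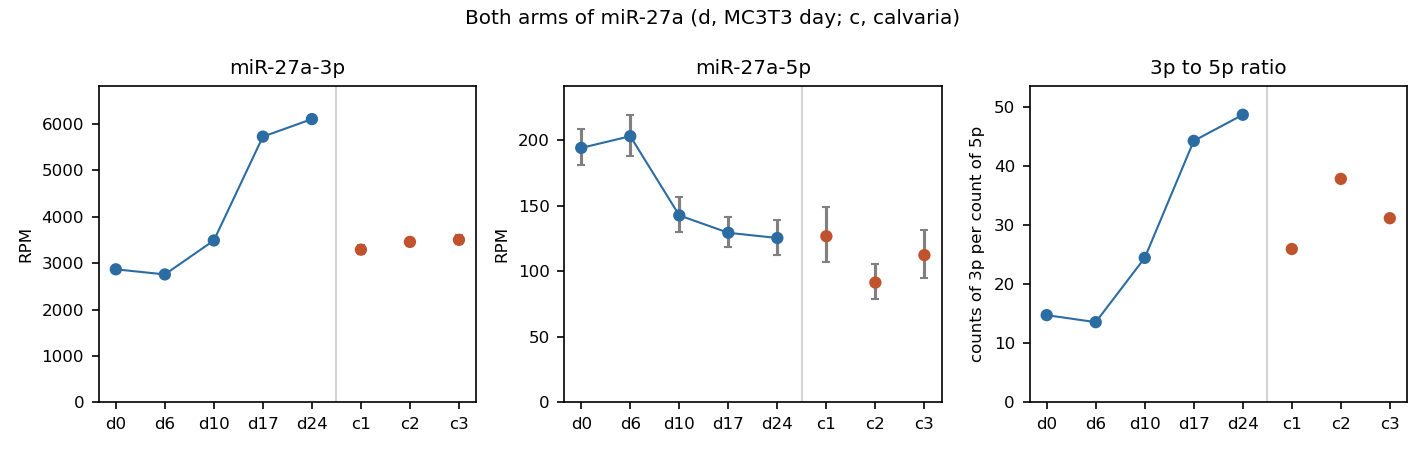
RPM of miR-27a-3p and miR-27a-5p and counts of the 3p arm per count of the 5p arm, by library (d, MC3T3 day, blue; c, calvaria, red), with exact 95% Poisson intervals on the RPM. The 3p arm is highest at days 17 and 24 (5721 and 6099 RPM), the 5p arm at days 0 and 6 (194 and 203 RPM), and the ratio reaches 48.6 at day 24.

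Between calvaria and MC3T3, 3 further passenger arms were called lower, a direction called for 28.7% of all miRNAs tested. miR-27a-5p was lower in calvaria by 0.77 (adjusted p = 0.0399, edgeR quasi-likelihood test) and miR-27b-5p by 0.70 (adjusted p = 0.0352), calls that held in 8 and 10 of 20 alternatives and were lost without any 1 of the calvaria libraries or day 6 (adjusted p of 0.0872 to 0.253), the latter also without day 24. miR-27b-5p stood at 26.4 to 46.9 RPM in MC3T3 and 20.3 to 24.6 RPM in calvaria. miR-23b-5p, at 62, 32, 30, 46 and 21 counts over the days and 7, 6 and 1 in calvaria, differed by -2.04 ± 0.55 (adjusted p = 0.00791), a call lost without calvaria 2 (0.0631) or calvaria 3 (0.0570). With under 10 counts in every calvaria library, miR-23b-5p passed the filter through MC3T3 alone, the material in which it was higher, so its direction was largely fixed by the filter. On the log2(day + 1) scale miR-23b-5p fell over the days by 1.29 (adjusted p = 0.0499, edgeR quasi-likelihood test). This was its only trend call in 15 alternatives, on a scale that called 12.5% of all miRNAs falling. miR-23a-5p, the passenger of the member that differed most, had 10 counts or fewer in every library and was not tested.

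The miR-3074 hairpins are annotated at the miR-24 loci on the other strand. miR-3074-5p had 1 to 10 counts in MC3T3 and 8, 25 and 13 counts in calvaria, a log2 difference of 2.82 ± 0.48 (adjusted p = 0.000369, edgeR quasi-likelihood test) that rests on few counts (10 or more in 3 libraries: day 6, calvaria 2 and calvaria 3). The 3p arms miR-3074-1-3p and miR-3074-2-3p summed to 10 and 2 counts over all libraries and were not tested. miR-128-3p, which shares 8 bases with miR-27a-3p, stood at 272 to 446 RPM in MC3T3 and 533 to 608 RPM in calvaria; its log2 difference was 0.52 (adjusted p = 0.141) and its fitted change over the days -1.05 (adjusted p = 0.180).

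The miRNAs most like each guide were taken from 172 others with a mean of at least 100 RPM, by Pearson's r of log2(RPM + 1) over the same 8 libraries. These r describe libraries of differing depth and material and carry no p. Nearest to miR-23a-3p were miR-6240 (r = 0.98), miR-6243 (0.97) and miR-5109 (0.96), all far higher in calvaria: miR-5109 averaged 129 RPM in MC3T3 and 15396 RPM in calvaria. Their log2 differences between calvaria and MC3T3 were 6.05, 5.09 and 6.74, against 1.91 for miR-23a-3p, so the likeness is not one of size. Whether the reads of these entries come from true miRNAs was not tested. Nearest to miR-23b-3p were miR-26b-5p (0.96), miR-378a-3p (0.96) and miR-378c (0.94), and nearest to miR-24-3p were miR-378a-3p (0.94), miR-26b-5p (0.94) and miR-152-3p (0.93). Nearest to miR-27b-3p were miR-125b-2-3p (0.98), miR-195a-5p (0.97) and miR-195a-3p (0.97), all higher on average in MC3T3.

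For miR-27a-3p the nearest were miR-149-5p (0.93), miR-210-3p (0.87), the miRNA best known for its response to low oxygen, and miR-1843a-5p (0.84). miR-210-3p measured 100, 357, 1308, 3311 and 2673 RPM over the days and 534, 561 and 381 RPM in calvaria, high at days 17 and 24 like miR-27a-3p. Among the members themselves, miR-23a-3p and miR-27b-3p had an r of 0.99 over the 5 days and of -0.12 over all 8 libraries. The cluster neighbours miR-23a-3p and miR-27a-3p had 0.68 and -0.06, and miR-23b-3p and miR-24-3p had 0.96 and 0.95.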

How the data were processed

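Small RNA of 5 MC3T3 and 3 calvaria libraries was analysed from the deposited tables. The deposited raw table holds expected counts (estimated counts, in part fractional) per mature arm and precursor; the deposited normalized table holds RPM, which matched raw counts divided by the library sum to within 0.013 RPM. The submitters' processing notes name cutadapt 0.9.5, Bowtie 0.12.7 and mm10, with no role or order; neither counting tool nor miRBase release is given there. Days follow the sample titles; the column names are 3 days lower, which leaves a linear slope as it is. The 4 later columns also carry an unexplained mark, "veh". Sequences and loci came from RefSeq and GENCODE on GRCm38; 6 of 7 members were matched, all but miR-23b-3p.

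Counts were summed per mature miRNA and rounded. miRNAs with 10 counts in at least 3 of 8 libraries (calvaria against MC3T3) or 2 of 5 (day trend) were tested with edgeR 4.0.16 (R 4.3.3; quasi-likelihood test, TMM factors, Benjamini-Hochberg adjustment over all miRNAs tested, threshold 0.05). The filter can pass a miRNA through 1 material alone. The day trend is a slope over 5 libraries times 24 days. Ratios were taken on unrounded counts, with no pseudocount since no count was 0. Alternatives were other scalings, DESeq2 1.42.0, limma 3.58.1 on log2(deposited RPM + 1 or + 10), other filters, entries per precursor, subsets of days and each library left out. On simulated counts, 81.8% of differences of 1 log2 unit between calvaria and MC3T3 were recovered among 464 miRNAs, and 40.8% of trends of that size among 384. The simulated trend set held 98 miRNAs changed by 1 log2 unit and 100 by 2, whereas the real trend test called 2.30% of miRNAs. Every simulated miRNA also had the same dispersion. The recovered share of trends may therefore be higher than in the real data. For calvaria, the simulated set held 99 miRNAs changed by 1 log2 unit and 99 by 2, with no change over the MC3T3 days. The real test called 64.1% of miRNAs, so the 81.8% cannot be taken as the share recovered in the real data. Without molecular identifiers, reads are not independent molecules, and Poisson intervals cover counting error only.

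The members, families and markers were chosen with earlier results of these data known. Beyond the 7 members, miRNAs are named by rule: all arms of the same hairpins and miR-3074, those sharing a guide's seed, miR-128-3p, and the 3 most like each guide.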

Additional observations from a re-analysis of the deposited data

Results flagged for a closer look

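Among the 5 MC3T3 libraries, day 0 lay far from the other 4 in 4 of 13 quantities checked by Dixon's test, which by chance marks about 1 in 20 groups. miR-23b-3p at 751 RPM, miR-27b-3p at 11025 RPM and miR-24-3p at 5193 RPM were lowest at day 0, with gaps to the next library of 0.749, 0.714 and 0.712 of the whole range, over a critical value of 0.71. The ratio of miR-24-3p to the sum of miR-23a-3p and miR-23b-3p was highest at day 0, at 3.01, with a gap of 0.750 of the range. miR-21a-5p took 45.5% of the day 0 counts, and its part in the low RPM values was not tested. These RPM values share the library total of day 0, so they are not separate checks. After TMM scaling miR-23b-3p and miR-27b-3p were still lowest at day 0. By contrast, miR-24-3p was then lowest at day 6, at 6785 against 7024 at day 0. The ratio does not depend on library scaling.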

How the results depend on the processing

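Of 197 alternative values for members and passenger arms in calvaria against MC3T3, 154 stayed on their side of the threshold. A call was lost in 38 and gained in 5. In the day trend 155 of 159 stayed and 4 gained one. For the 6 ratios no adjusted p could reach 0.05 without 1 library. A value there counted as unchanged if it moved by less than 1 SD of the MC3T3 libraries. By these rules all 60 alternative values of the ratios were unchanged. Those from RPM had to be, since scaling cancels within a library, so the 60 say little about the p-values. miR-23a-3p was called in 20 of 20 alternatives, with adjusted p up to 0.00169, and miR-27b-3p in 6 of 20, with adjusted p of 0.000237 to 0.341. The median of all miRNAs was 0.06 with TMM, 0.25 with library totals, 0.23 with DESeq2 factors and -0.37 with upper quartile scaling, which called 142 miRNAs higher and 192 lower in place of 167 and 135. A minimum of 100 counts called 81 higher and 75 lower, and leaving out single libraries 77 to 179 higher and 86 to 145 lower, the fewest without calvaria 2. The filter of 3 libraries was kept in these fits. Without 1 calvaria library, a miRNA seen in calvaria alone could therefore no longer be tested. Such fits tested 386 to 388 miRNAs, against 461 to 471 without 1 MC3T3 day, so part of the fall in calls is set by the filter.

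The day trend called 4 miRNAs rising and 5 falling. The counts were 0 and 0 with library totals and with limma at either pseudocount, 0 and 1 without miR-21a-5p in the totals or with a minimum of 100 counts, 7 and 10 with no filter, 6 and 8 per precursor, 19 and 14 with the DESeq2 Wald test, and 39 and 49 on the log2(day + 1) scale. Leaving out single days gave 0 to 27 rising and 0 to 30 falling, the most without day 0 and 0 in both directions without day 6, day 17 or day 24. The causes of these shifts were not tested. No paired analysis was possible because each MC3T3 day has 1 library and the calvaria libraries share no number with them. Depth limits miR-24-1-5p, miR-23b-5p and miR-3074-5p, at 72 counts or fewer per library.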
